A study of Mus musculus with 13 samples.

Results

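OLIG2 binding was compared between oligodendrocyte precursor cells (OPCs) and newly formed oligodendrocytes (NFOs) by setting their called OLIG2 ChIP-Seq peaks side by side. All listed peaks on chromosomes 1 to 19 and X were taken, which kept 7383 of 7384 OPC peaks and 16908 of 16911 NFO peaks, and 1 OPC and 3 NFO peaks on chromosome Y were left out. The series holds 13 samples, of which 1 OLIG2 library for each cell type entered the comparison, with the H3K4me3 and H3K27me3 peaks of the same cell types set beside them. Both cell types came from brains of untreated C57BL/6 mice at postnatal day 7, from male and female animals. OPCs were panned with an antibody to PDGFRα and NFOs with an antibody to GalC, after microglia and endothelial cells had been removed on plates coated with the lectin BSL-1. The same OLIG2 antibody was used in both, in a ChIP protocol for low cell numbers, and the libraries were built with the DNA SMART ChIP-Seq kit, which adds a tail of 1 kind of base to single-stranded DNA and primes on that tail. With 1 library per cell type there are no replicates, no test was made between the cell types, and no value carries an error between animals or preparations. The lists do not give read counts, so depth is unknown, and each interval below is an exact binomial (Clopper-Pearson) 95% interval that covers counting error only.

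OLIG2 is a basic helix-loop-helix transcription factor that specifies the oligodendrocyte lineage and is kept through its differentiation. Factors of this family bind as dimers to E-boxes, short palindromic or near-palindromic elements with the letters CANNTG. OPCs divide and migrate, and NFOs are the premyelinating stage that follows their exit from the cell cycle.

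Peak lists do not measure expression, so the labels were checked against H3K4me3, a mark of active or poised promoters, in the same cell types. An H3K4me3 peak lay within 1 kb of the TSS of 19 of 20 OPC genes in OPCs and 15 of 20 in NFOs, and at 39.1% and 23.5% of all genes. Of 30 NFO and myelin genes, 18 had such a peak in OPCs and 11 in NFOs. Mag, Mog and Mobp, which encode proteins of the myelin sheath, had none in either cell type, so this measure did not bear out the NFO label. In OPCs the OPC list did not stand apart from the neural stem cell list, while its share was above those of the other lists. In NFOs its share was the highest of the lists. Of 20 neural stem cell genes, 20 had an H3K4me3 peak in OPCs and 11 in NFOs, of 20 neuron genes 15 and 8, of 18 astrocyte genes 11 and 7, of 14 vascular genes 4 and 1, and of 16 microglia genes 2 and 0.

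Sequences of 12 peaks are printed here because they show both features that recur below, E-boxes and runs of adenine or thymine. They are the plus strand of the GRCm38 genome (RefSeq), and capitals mark the E-box CAGCTG, the E-box CATCTG with its reverse complement CAGATG, the E-box CATATG, and runs of 10 or more A or T. The first 3 are OPC peaks that overlapped an NFO peak, held CAGCTG and had no run of 10 or more within 150 bp, and were chosen after their values were seen.
Dhtkd1 OPC peak, chr2:5911550-5911779: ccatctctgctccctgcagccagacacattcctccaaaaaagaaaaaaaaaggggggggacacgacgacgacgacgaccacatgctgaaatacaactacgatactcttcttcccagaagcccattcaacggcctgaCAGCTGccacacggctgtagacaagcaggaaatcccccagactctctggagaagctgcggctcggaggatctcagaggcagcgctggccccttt
Mycn OPC peak, chr12:12938368-12938597: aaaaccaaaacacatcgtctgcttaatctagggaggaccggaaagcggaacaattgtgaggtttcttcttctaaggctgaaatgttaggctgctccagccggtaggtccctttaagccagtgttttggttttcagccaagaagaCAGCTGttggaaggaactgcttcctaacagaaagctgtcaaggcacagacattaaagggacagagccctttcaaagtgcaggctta
Fkbp5 OPC peak, chr17:28491390-28491619: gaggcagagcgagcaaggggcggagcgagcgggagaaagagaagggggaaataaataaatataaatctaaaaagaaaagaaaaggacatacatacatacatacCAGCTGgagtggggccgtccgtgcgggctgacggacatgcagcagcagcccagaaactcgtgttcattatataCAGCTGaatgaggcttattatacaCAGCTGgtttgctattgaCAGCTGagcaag
The next 3 are the OPC sides of overlapping pairs at members of the lists of OPC genes, NFO and myelin genes and lineage transcription factors, with the highest fold enrichment there outside untranslated exons.
Cspg4 OPC peak, chr9:56881098-56881327: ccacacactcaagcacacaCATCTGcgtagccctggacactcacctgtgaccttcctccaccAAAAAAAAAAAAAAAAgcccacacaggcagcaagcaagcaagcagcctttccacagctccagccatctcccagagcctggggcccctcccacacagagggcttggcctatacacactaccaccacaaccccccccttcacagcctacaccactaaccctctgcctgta
Zfp536 OPC peak, chr7:37625001-37625230: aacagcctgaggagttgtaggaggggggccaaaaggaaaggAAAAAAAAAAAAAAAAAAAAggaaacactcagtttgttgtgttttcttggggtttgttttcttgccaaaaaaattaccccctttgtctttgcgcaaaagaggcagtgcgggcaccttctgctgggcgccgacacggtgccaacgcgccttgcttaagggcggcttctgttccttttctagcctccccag
Enpp6 OPC peak, chr8:46985139-46985368: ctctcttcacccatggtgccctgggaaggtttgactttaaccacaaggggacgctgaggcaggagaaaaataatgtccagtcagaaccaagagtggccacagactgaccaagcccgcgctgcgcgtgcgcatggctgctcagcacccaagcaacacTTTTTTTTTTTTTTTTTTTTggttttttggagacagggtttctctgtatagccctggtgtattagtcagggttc
OPC peaks at members of the same lists that overlapped no NFO peak follow.
Megf11 OPC peak, chr9:64532961-64533190: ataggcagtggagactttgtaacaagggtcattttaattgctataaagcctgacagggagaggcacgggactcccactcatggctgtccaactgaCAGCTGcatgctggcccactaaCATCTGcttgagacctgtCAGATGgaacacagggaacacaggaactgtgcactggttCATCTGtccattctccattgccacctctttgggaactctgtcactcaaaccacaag
Cspg4 OPC peak, chr9:56869506-56869735: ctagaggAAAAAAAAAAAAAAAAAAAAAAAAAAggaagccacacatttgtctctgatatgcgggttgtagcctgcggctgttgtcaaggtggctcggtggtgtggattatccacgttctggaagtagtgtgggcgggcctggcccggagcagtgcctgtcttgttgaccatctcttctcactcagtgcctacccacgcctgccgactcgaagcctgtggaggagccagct
Bmp4 OPC peak, chr14:46386578-46386807: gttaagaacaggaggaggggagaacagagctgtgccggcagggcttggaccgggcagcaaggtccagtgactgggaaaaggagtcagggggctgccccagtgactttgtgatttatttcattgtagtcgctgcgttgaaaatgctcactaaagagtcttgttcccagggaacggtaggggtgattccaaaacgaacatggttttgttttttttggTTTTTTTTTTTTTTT
NFO peaks at members of these lists that overlapped no OPC peak complete the set.
Bcas1 NFO peak, chr2:170427958-170428193: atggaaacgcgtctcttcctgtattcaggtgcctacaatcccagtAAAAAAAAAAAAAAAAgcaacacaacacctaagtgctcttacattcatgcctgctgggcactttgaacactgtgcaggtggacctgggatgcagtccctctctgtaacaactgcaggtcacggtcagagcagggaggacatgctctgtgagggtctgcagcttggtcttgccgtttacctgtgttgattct
Zfp536 NFO peak, chr7:37689370-37689605: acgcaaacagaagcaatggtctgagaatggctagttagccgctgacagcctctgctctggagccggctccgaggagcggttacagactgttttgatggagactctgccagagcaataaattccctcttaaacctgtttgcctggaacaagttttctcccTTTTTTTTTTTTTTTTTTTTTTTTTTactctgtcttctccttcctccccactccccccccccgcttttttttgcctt
Itpr2 NFO peak, chr6:146369696-146369931: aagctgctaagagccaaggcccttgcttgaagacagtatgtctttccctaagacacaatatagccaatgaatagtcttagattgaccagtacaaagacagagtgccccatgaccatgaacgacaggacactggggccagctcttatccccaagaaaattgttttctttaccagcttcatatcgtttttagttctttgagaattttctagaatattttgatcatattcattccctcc
Among these 9 list members' peaks, those of Megf11 and Itpr2 showed no run of A or T in capitals. The Megf11 peak held 4 E-boxes of the motifs in capitals, with the nearest 5 bp from the summit. Other CANNTG matches in these sequences are not in capitals and were not counted. The other 7 list members' peaks carried a run whose length, counted up to 150 bp from the summit, was 16 to 26 bases. The Mycn peak, in an intron of this proto-oncogene of the bHLH class, had its CAGCTG 32 bp from the summit, and the Fkbp5 peak, in a gene for a chaperone of the glucocorticoid receptor, held 4 copies of CAGCTG.

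Runs of adenine or thymine recurred beside the summits of both lists, a feature chosen after these sequences had been seen. A run of 15 or more A or T lay within 150 bp of the summit of 4237 OPC peaks (57.4%, interval 56.3 to 58.5) and 9089 NFO peaks (53.8%, interval 53.0 to 54.5). The share was 1.87% of 255920 windows of the same length laid on a fixed 10 kb grid, and 2.17% of grid windows within 1 kb of a TSS. With a run of 10 or more counted, the shares were 76.4% of OPC peaks, 77.0% of NFO peaks and 6.27% of the grid. Runs of 15 or more adenines lay before the summit on the plus strand in 2134 of 2141 cases in OPCs and 4558 of 4596 in NFOs. Thymine runs lay after it in 2157 of 2169 and 4644 of 4682 cases. The median distance from summit to run centre was between 60.5 and 62.0 bp for either base in either list. The part of the library preparation in these runs, and of the runs in each result below, was not tested. Values with and without the runs are given for several of the results, not for all.

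**Figure D1:**
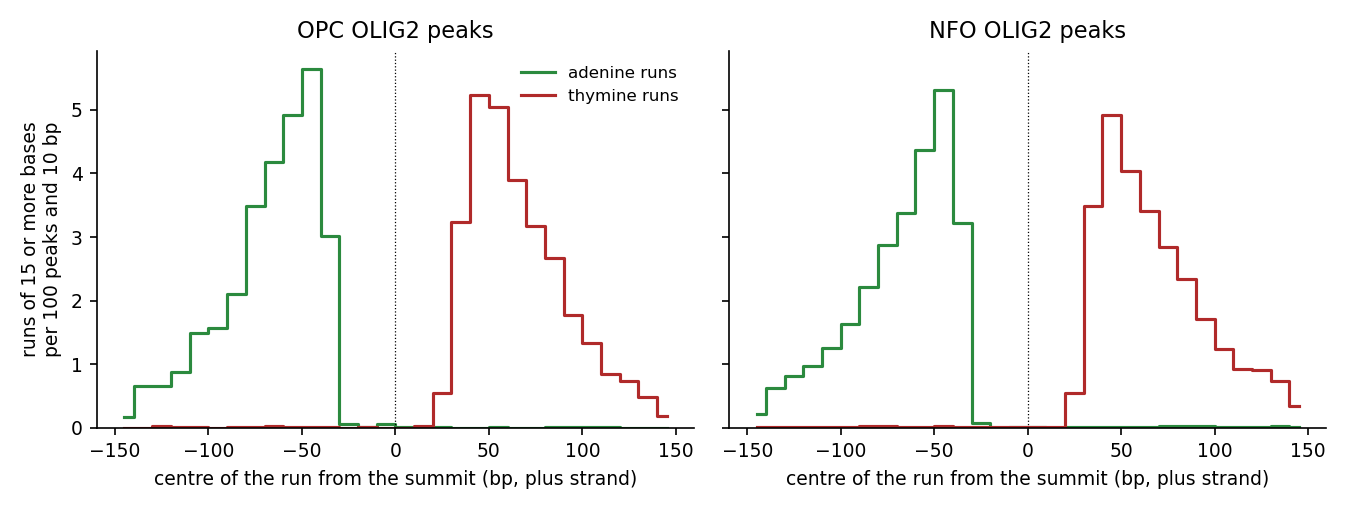
Position of runs of 15 or more adenines (green) or thymines (red) around OPC and NFO OLIG2 summits. The x axis is the distance of the run's centre from the summit in bp on the plus strand, and the y axis the number of runs per 100 peaks in bins of 10 bp. In both lists adenine runs lie before the summit and thymine runs after it, with next to none in the 20 bp on either side.

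At the level of sites, 1059 OPC peaks overlapped 1059 NFO peaks by at least 1 bp, each with a single partner. These were 14.3% of the OPC list (interval 13.6 to 15.2) and 6.26% of the NFO list (interval 5.90 to 6.64). An OPC peak outside this set lay a median of 39361 bp from the nearest NFO summit, and an NFO peak outside it 96449 bp from the nearest OPC summit. Within the lists themselves, the nearest other peak was 86785 bp away in OPCs and 42630 bp away in NFOs. The lists differ in length, so peaks were also matched by rank. Of the 100 strongest peaks in each list, 36 overlapped (36.0%, interval 26.6 to 46.2), of the top 1000, 182 did, and of the 7383 strongest NFO peaks, 722 overlapped the OPC list (9.78%).

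Overlap was most frequent among peaks of high fold enrichment, the ratio over control DNA that the peak caller gave. OPC peaks with a fold enrichment of at most 5 overlapped an NFO peak in 11.98% of cases, those of 20 to 40 in 51.8% (interval 45.8 to 57.8) and those above 40 in 84.1% (37 of 44, interval 69.9 to 93.4). The same steps in NFOs gave 3.35%, 43.2% (interval 38.2 to 48.3) and 93.3% (42 of 45, interval 81.7 to 98.6). Peaks above 40 were few, and most listed peaks were weak, with a median of 8.03 in OPCs and 8.12 in NFOs. Of NFO peaks, 1729 (10.2%) had an FDR over 0.05, against 0 of OPC peaks. OPC peaks with a run of 10 or more A or T overlapped an NFO peak in 17.0% of cases (interval 16.1 to 18.1) and those without in 5.62% (interval 4.59 to 6.81). In NFOs these shares were 7.15% and 3.29%. Of the overlapping pairs, 909 (85.8%) had a run beside both summits and 76 (7.18%) beside neither. Among peaks with a fold enrichment above 20 and no run, 15 of 53 OPC peaks (28.3%, interval 16.8 to 42.4) and 14 of 22 NFO peaks (63.6%, interval 40.7 to 82.8) overlapped.

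**Figure D2:**
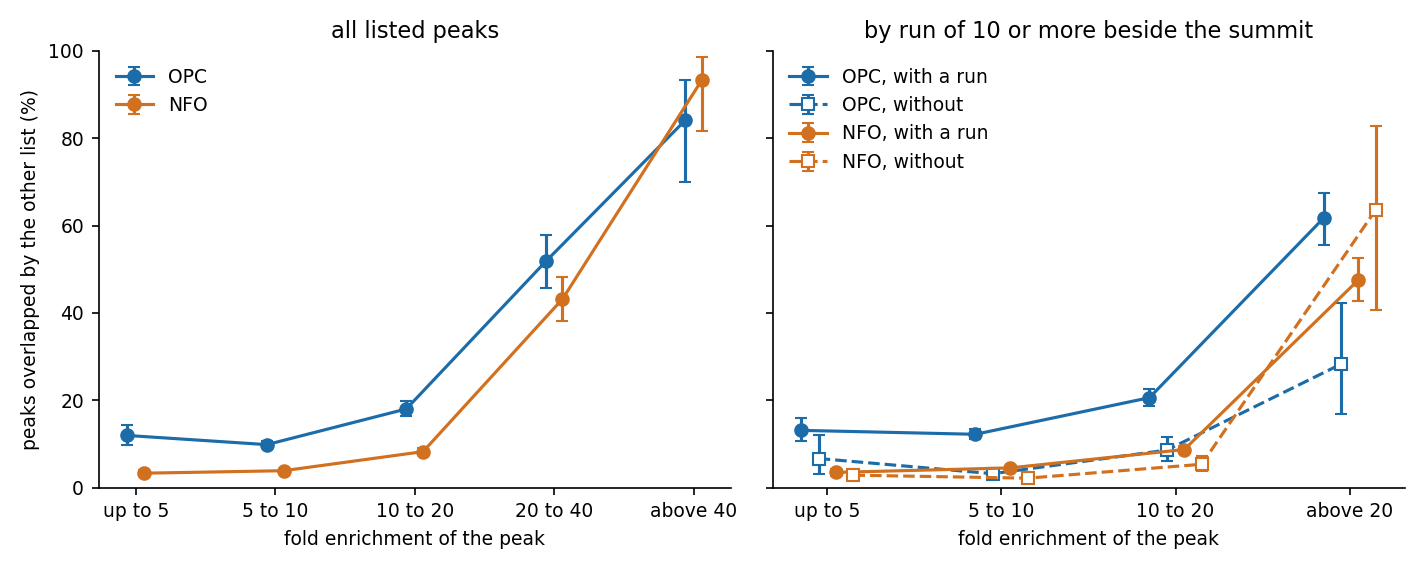
Share of OLIG2 peaks overlapped by a peak of the other list (y axis, %) against the peak's own fold enrichment (x axis, bins), for all listed peaks and split by a run of 10 or more A or T within 150 bp of the summit. Points are shares and bars exact binomial 95% intervals. The share is 84.1% of OPC and 93.3% of NFO peaks above a fold enrichment of 40, and is 28.3% of OPC peaks above 20 that have no run.

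Above a fold enrichment of 40, 7 OPC and 3 NFO peaks had no partner, and from 20 to 40, 134 of 278 and 221 of 389 had none. In OPCs the strongest unpartnered peak lay on chromosome 14 (chr14:36502117-36502284, fold enrichment 81.7), outside any gene. The next was in an intron of Frem1, which encodes an extracellular matrix protein (chr4:82946447-82946594, 70.8). An intronic peak of Fam19a2, which encodes a secreted chemokine-like protein, had 46.7, and a peak 8 bp upstream of the TSS of the translation initiation factor gene Eif3k had 45.8. The fifth lay in an intron of the lncRNA Gm48623 with 41.8. In NFOs the strongest unpartnered peak had a fold enrichment of 107 and lay 5688 bp upstream of Adap2. It was followed by an intronic peak of the zinc finger gene Zfp292 (chr4:34834853-34835088, 46.2) and an intergenic peak 124855 bp upstream of Mb21d2 (41.4). Peaks 309 bp upstream of Bicra, a subunit gene of the BAF chromatin remodelling complex, and 147 bp upstream of Arl8b, a lysosomal GTPase gene, had 39.6 and 38.8. All 10 of these peaks had a run beside them, of 14 to 21 bases in OPCs and 11 to 36 in NFOs.

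Where peaks overlapped, they sat at nearly the same base. The summits were a median of 21 bp apart, and 577 of 1059 pairs (54.5%) were within 25 bp. In 736 pairs (69.5%) the fold enrichments were within a factor of 2, in 132 the OPC value was over that factor higher, and in 191 the NFO value. Across the pairs, Pearson's r of the log2 fold enrichments was 0.49 and Spearman's rho 0.44, given as a description over sites that share 2 libraries. No scaling between the libraries is known, so a ratio compares the lists as deposited.

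**Figure D3:**
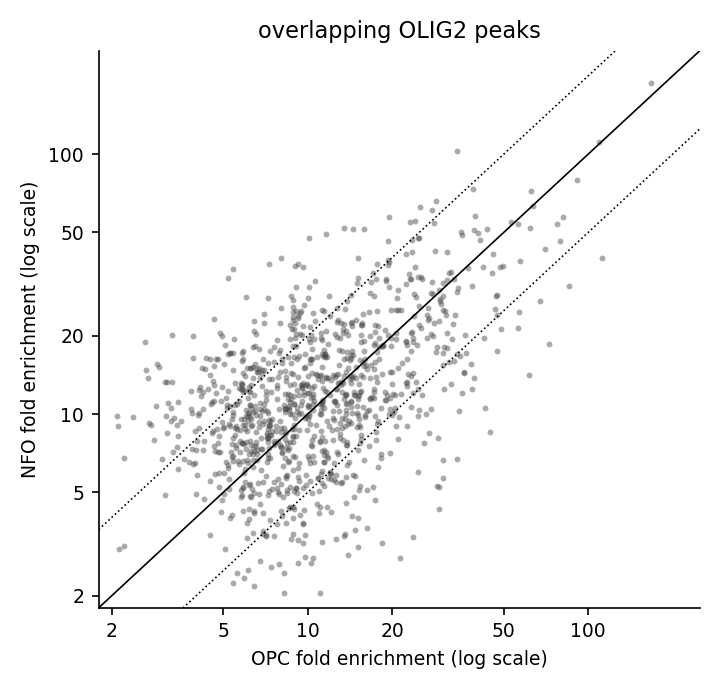
Fold enrichment of 1059 overlapping OLIG2 peaks in OPCs (x axis) and NFOs (y axis), both on log scales. Each point is a pair, the solid line marks equal values and dotted lines a factor of 2, and 736 pairs lie between the dotted lines.

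The pairs with the largest ratios had a weak partner on the other side. Toward OPCs the first was at Ubr4, a ubiquitin ligase gene, with 21.4 in OPCs and 2.81 in NFOs (7.61-fold). Then came AC125381.1 (23.8 and 3.39), an intergenic pair 31415 bp downstream of the Egf TSS (29.3 and 4.33), Zbtb20, a transcription factor gene (18.4 and 3.19), and a site near Gm28083 (29.5 and 5.23). The NFO peaks of Ubr4, AC125381.1 and Zbtb20 had an FDR over 0.05. Toward NFOs the first was Gtf3c5, which encodes a subunit of transcription factor IIIC, with 2.63 in OPCs and 18.97 in NFOs (7.22-fold). Srf, the serum response factor gene, had 5.44 and 36.1, with a run of 34 bases beside both summits. A site near Gm44593 had 5.21 and 33.3, Lynx1, a modulator of nicotinic receptors, 3.29 and 20.2, and Zzef1 2.66 and 14.8.

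Among E-boxes, the motif CATATG and the motif CATCTG with its reverse complement CAGATG together lay within 100 bp of the summit in 1619 OPC peaks (21.9%, interval 20.99 to 22.9) and 3371 NFO peaks (19.9%, interval 19.3 to 20.6). In grid windows of the same 201 bp the share was 20.7%, close to both. CATCTG, on either strand, lay in 20.1% of overlapping OPC and 19.6% of overlapping NFO peaks, against 15.15% of grid windows. In peaks that did not overlap it lay in 16.75% and 14.8%. Within 40 bp of the summit it lay in 11.2% of overlapping OPC peaks, against 5.67% in each flank of equal length. Any CANNTG lay in 66.4% of OPC and 63.9% of NFO peaks, against 65.8% of grid windows. CAGCTG, a palindrome looked at after the fixed motifs, lay within 100 bp of the summit in 12.2% of OPC and 8.85% of NFO peaks against 7.41% of grid windows. It was found in 19.1% of OPC and 18.7% of NFO peaks that overlapped (intervals 16.8 to 21.6 and 16.4 to 21.2), and in 11.1% and 8.20% of those that did not. Overlapping peaks with a fold enrichment above 20 held it in 29.8% of cases in OPCs (54 of 181) and 31.9% in NFOs (67 of 210). Within 40 bp of the summit it lay in 10.9% of overlapping OPC peaks, against 3.49% and 4.53% in flanks of equal length. The share was higher in peaks with no run of 10 or more. It was 16.8% of OPC peaks without partner (interval 15.1 to 18.7) and 9.32% of NFO peaks without partner (interval 8.41 to 10.3), against 9.04% and 7.85% in those with a run. In grid windows it was 7.54% without and 5.45% with a run. For reference, CAGCTG was found in 16.3% and CATCTG, on either strand, in 17.2% of 32851 RefSeq promoters from 250 bases before to 50 after the start. Those windows are longer than 201 bp, so the shares are not directly comparable. In 201 bp grid windows within 1 kb of a TSS they were 10.15% and 14.2%. Both strands were searched, and a match describes letters, not a bound site.

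**Figure D4:**
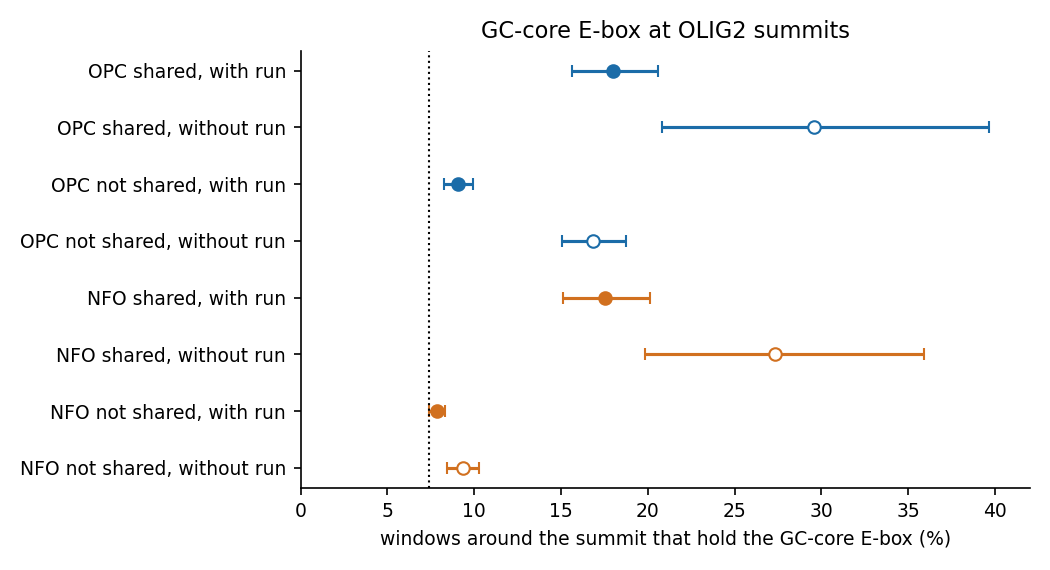
Share of windows of 201 bp around OLIG2 summits that hold the GC-core E-box CAGCTG (x axis, %), by list, overlap with the other list and a run of 10 or more A or T. Points are shares, bars exact binomial 95% intervals, and the dotted line is the share of grid windows, 7.41%. The share is 29.6% of overlapping OPC peaks and 27.3% of overlapping NFO peaks without a run, and 7.85% of unpartnered NFO peaks with a run.

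Introns held most peaks of both cell types, 53.3% in OPCs and 51.7% in NFOs, and 31.0% and 35.6% lay outside genes and their 5 kb upstream. Overlapping peaks were nearer to promoters. Within 1 kb of a TSS lay 24.7% of overlapping OPC peaks (interval 22.1 to 27.4) and 12.9% of the rest (interval 12.1 to 13.8), and 24.8% and 8.58% in NFOs. Split by a run of 10 or more, OPC peaks within 1 kb of a TSS were 14.7% with a run and 14.3% without, and NFO peaks 9.91% and 8.53%. H3K4me3 peaks of the same cell type covered 27.5% of overlapping and 9.65% of unpartnered OPC peaks, and 28.8% and 4.97% in NFOs. Among peaks within 1 kb of a TSS alone, the shares were 77.0% (interval 71.4 to 82.0) against 51.7% (interval 48.2 to 55.1) in OPCs and 76.8% against 31.6% in NFOs. H3K27me3, the mark of Polycomb repression, covered 7.90% of OPC peaks and 1.75% of NFO peaks. The deposited H3K27me3 lists themselves held 19200 OPC and 8578 NFO peaks past the filter. With a run the H3K27me3 share of OPC peaks was 9.59%, and without it 2.41%. In NFOs these shares were 1.94% and 1.105%. H3K4me3 covered 13.1% of OPC peaks with a run and 9.17% of those without, and 7.41% and 3.31% of NFO peaks. Among overlapping peaks it covered 27.3% with and 29.6% without a run in OPCs, and 30.2% and 18.75% in NFOs.

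At the level of genes, a larger part of each list was common to both cell types than at the level of sites. A gene was counted when a peak lay in its body or the 5 kb upstream. Of 41847 annotated genes, 5053 had an OPC peak (12.1%), 8889 an NFO peak (21.2%) and 2679 both (6.4%). These 2679 made up 53.0% of genes with an OPC peak and 30.1% of genes with an NFO peak. An OPC peak and an NFO peak overlapped at 1020 of them (38.1%, interval 36.2 to 39.9), while at 1659 the cell types had peaks at different places of the same gene. OPCs alone had peaks at 2374 genes and NFOs alone at 6210. Protein-coding genes with peaks in both had overlapping peaks in 34.6% of cases and lncRNAs in 52.2%.

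Gene length moved with all of these shares. Genes of up to 5 kb had an OPC peak in 4.06% and an NFO peak in 7.28% of cases, and genes over 500 kb in 75.8% and 96.3%. Of genes with peaks in both, 73.2% of those up to 5 kb and 23.7% of those above 500 kb had overlapping peaks. The median length was 40268 bp for genes with overlapping peaks, 97808 bp for genes with peaks at different places, 20370 bp for OPC genes alone and 28092 bp for NFO genes alone. Without peaks beside a run of 10 or more A or T, 1343 genes kept an OPC peak (3.21%), 2555 an NFO peak (6.11%) and 306 both, with overlap at 79 (25.8%).

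Genes with several peaks made up 17.7% of OPC genes (895, interval 16.7 to 18.8) and 27.7% of NFO genes (2460, interval 26.8 to 28.6). Without peaks beside a run of 10 or more A or T the shares were 5.73% and 11.4%, and with a fold enrichment above 10 they were 9.35% and 13.98%. Their median lengths were 130526 and 101169 bp, against 30882 and 25449 bp for genes with 1 peak. A gene with more peaks in 1 cell type was more often on the list of the other. OPC genes with 1, 2 and 3 or more peaks were NFO genes in 47.7%, 73.5% and 89.4% of cases, and NFO genes with as many were OPC genes in 22.9%, 39.9% and 64.7%. The median lengths at these steps were 30882, 97752 and 298783 bp in OPCs. The part of length in this order was not tested.

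Gm20388 had the most peaks in both lists, 28 in OPCs and 42 in NFOs with 5 overlapping pairs, over an annotated span of 4434882 bp that covers other genes. Fgfr2, a receptor for fibroblast growth factors, followed with 15 and 26 and 2 overlapping pairs, over a very long span of 2960900 bp in this annotation. For both genes the counts cover the whole span, and peaks at other genes inside it were not told apart. Zfhx3, a homeobox transcription factor gene, had 9 and 15 with 3 overlapping pairs, at fold enrichments up to 53.3 in OPCs and 54.8 in NFOs. Nav2, a neuronal guidance gene, had 8 OPC and 4 NFO peaks, and Wwox, an oxidoreductase gene at a fragile site, 8 and 11. Ank3, which encodes ankyrin G of the node of Ranvier, had 6 OPC and 15 NFO peaks without any overlap, the closest 90 bp apart. Cntnap2, encoding an adhesion protein of the juxtaparanode, had 3 and 13 with 1 overlapping pair.

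Protein-coding genes with the most peaks in OPCs and none in NFOs were Prrc2b with 4 and Fam19a2, Dnm2, Pgm2 and Fscn1 with 3 each. Dnm2 encodes a dynamin GTPase of endocytosis with fold enrichments up to 17.7, and Fscn1 encodes fascin, which bundles actin filaments, with up to 17.3 over a gene of 12843 bp. In the other direction Lingo2 had 12 NFO peaks and no OPC peak, with fold enrichments up to 12.8. Tenm4, a teneurin gene, had 7 with up to 22.9, and Nkain2, Oca2 and Mrtfa, the last a coactivator of SRF, had 7 each. Among genes under 50 kb, looked at after these values were seen, the tetraspanin gene Cd9 had 3 OPC peaks and no NFO peak, and Tango2 5 NFO peaks and no OPC peak.

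Where a gene had peaks in both cell types and none overlapped, the closest OPC and NFO peaks were a median of 15635 bp apart (quartiles 5264 and 36162, range 25 to 505489, 1659 genes). The median was 47560 bp without peaks beside a run of 10 or more A or T and 27487 bp with a fold enrichment above 10. The gap was under 1 kb at 91 genes (5.49%), under 5 kb at 401 (24.2%), under 10 kb at 634 (38.2%) and under 100 kb at 1544 (93.1%). At 1316 genes (79.3%) both peaks lay in the gene body. At 57 genes (3.44%) both lay in the 5 kb upstream, a median of 1612 bp apart. At the 783 genes with 1 peak in each list the median was 15231 bp, which was 33.5% of the gene's length at the median. Within the NFO list, the closest peaks of the same gene were 14634 bp apart at the median over 2460 genes, and within the OPC list 21434 bp over 895 genes. The distance between cell types lay between these, over partly different genes. The widest gap was at Ntm, an adhesion gene, and the gap at Wasf2, a regulator of actin branching, was 600 bp. Both were picked after their values were seen.

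OPC genes were frequent in both lists. Of 20 members, 14 had an OPC peak, 13 an NFO peak and 11 both, against 12.1%, 21.2% and 6.4% of all genes, and overlapping peaks were found at 3. The list's median gene length was 74700 bp, against 9830 bp over all genes. Of all genes over 50000 and up to 100000 bp long, 26.7% had an OPC peak and 46.4% an NFO peak. Of those over 200000 and up to 500000 bp it was 56.0% and 80.6%, and of those above 500000 bp 75.8% and 96.3%. The part of length in the counts of this list was not tested. Cspg4, which encodes the NG2 proteoglycan, had an intronic pair with 25.6 in OPCs and 11.8 in NFOs, and another intronic peak of 16.4 in OPCs alone. Both lay beside runs, of 16 and 26 bases. Gpr37l1, an orphan receptor gene, had an overlapping pair with 10.3 and 7.97. It also had upstream peaks of 4.10 in OPCs and 5.27 in NFOs at different places. Sox5, a SoxD factor gene, had 2 overlapping pairs, with 9.92 and 8.71 at the first and 7.88 and 10.5 at the second.

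The other 8 members with peaks in both had them at different places. Over all genes this held for 1659 of the 2679 with peaks in both, and 38.1% had overlapping peaks. Among genes over 50000 and up to 100000 bp long with peaks in both, 28.6% had overlapping peaks. The share was 27.7% for those up to 200000 bp, 28.1% up to 500000 bp and 23.7% above. The 8 members ranged from 87198 bp (Vcan) to 1550396 bp (Pcdh15). Megf11, a transmembrane protein gene, had 4 OPC peaks, the strongest the E-box-rich peak of 16.8 shown above, and 1 NFO peak of 11.1 that lay 5242 bp from the closest OPC peak. Nxph1, encoding a ligand of neurexins, had 1 OPC peak of 6.81 and 5 NFO peaks of 3.90 to 11.7. Lhfpl3 had 1 OPC peak of 8.57 and 6 NFO peaks of up to 13.1. Pcdh15, a protocadherin gene, had 3 OPC and 7 NFO peaks, Sox6 1 and 4, and Tnr, the tenascin-R gene, 2 and 3. Ptprz1 and Vcan, which encode a receptor phosphatase and a matrix proteoglycan, had 1 and 1 each, 60653 and 69244 bp apart. Pdgfra, the receptor used to pan OPCs, had a single OPC peak of 4.55 in an intron with no run of 10 or more, and no NFO peak. Cspg5 (9.16) and Xylt1 (6.01) also had an OPC peak alone, and Bcan (2.35) and Matn4 (12.6 and 11.4) NFO peaks alone. The only NFO peaks of Bcan and Ptprz1 had an FDR over 0.05, and both genes were still counted as having an NFO peak. The weakest NFO peaks of Nxph1, Lhfpl3, Pcdh15 and Tnr also had an FDR over 0.05, while the other NFO peaks of these genes did not. The remaining 4 members had no peak in either list.

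NFO and myelin genes showed 9 of 30 members with an OPC peak, 13 with an NFO peak and 7 with both, of which 3 overlapped. Over all genes the shares were 12.1%, 21.2% and 6.4%, with overlap at 38.1% of genes with both. The median length of the list was 25524 bp, against 9830 bp over all genes. Enpp6, a choline phosphodiesterase gene that marks newly forming oligodendrocytes, had an overlapping pair 1633 bp upstream of its TSS, with 15.2 in OPCs and 9.07 in NFOs. Fyn, a kinase gene of process outgrowth and myelination, had an intronic pair with 8.60 and 4.35, and further NFO peaks of 9.20, 15.7 and 14.03 and an OPC peak of 4.63. Mog, a myelin surface protein gene, had a pair with 5.99 and 9.13. These 3 genes were on both lists at the same place, with runs of 20, 11 and 12 to 16 bases beside the pairs.

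Bmp4, a ligand that restrains differentiation, had an intronic OPC peak of 13.96 and an NFO peak of 11.7 that lay 3723 bp upstream of the TSS, 7466 bp apart. Ugt8a, the galactosyltransferase gene of galactolipid synthesis, had an OPC peak of 11.03 and NFO peaks of 3.20 and 17.0. The weaker NFO peak of Ugt8a had an FDR over 0.05. Tcf7l2, a Wnt effector gene active at this stage, had OPC peaks of 6.34 and 12.5 without a run and NFO peaks of 10.8, 11.4 and 7.85 with runs of 13 to 19. Sema4d had 1 and 1. With NFO peaks alone were Bcas1 (23.8, 231 bp upstream of the TSS), Itpr2 (19.3 in an intron, no run of 10 or more), Cldn11, the claudin gene of the myelin radial component (7.62 and 6.60), Cnp (8.09), Gjc3 (5.69) and Tmem163 (7.40). Sirt2 (12.7) and Nfasc (6.30) had an OPC peak alone, and 15 members, Mag among them, had none in either list.

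Lineage transcription factors and cofactors showed 12 of 34 members with an OPC peak, 17 with an NFO peak and 10 with both, and 6 had overlapping peaks. All genes had these in 12.1%, 21.2% and 6.4% of cases, with overlap at 38.1% of the last, and the list's median length was 22538 bp. Sox9, a glial SoxE factor gene, had the strongest pair, with 36.0 in OPCs and 14.4 in NFOs in an untranslated exon. Sox4 went the other way, with 4.66 in OPCs and 15.4 in NFOs at the same summit base, 683 bp upstream of a TSS. Zfp536, a zinc finger gene, had a pair with 22.9 and 14.3 and an NFO peak of 22.7 elsewhere in its introns. Nfib had a pair with 9.46 and 12.98, and Smarca4, the Brg1 ATPase gene of the BAF complex, a pair with 8.72 and 11.4. The 5 pairs named here lay beside runs of 13 to 20 bases.

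Olig2 itself had an OPC peak of 12.6 in an untranslated exon, 2940 bp downstream of its TSS and with no run of 10 or more, and no NFO peak. Sox8 also had a peak in OPCs alone (14.8). Nfia had 1 OPC and 5 NFO peaks and Zeb2, a repressor of inhibitory signals in myelination, 1 and 2, none overlapping. The weakest NFO peak of Nfia had an FDR over 0.05. Tcf12, a dimer partner gene of bHLH factors, had 6 NFO peaks of 5.28 to 8.86 and no OPC peak. The chromatin remodeller genes Chd7 and Chd8 had 3 NFO peaks each, with up to 14.2 and 9.69, and no OPC peak. Etv5, Klf9, Rest and Sox11 also had NFO peaks alone. Over the 3 lists together, a run of 10 or more lay beside 33 of 47 OPC and 78 of 99 NFO peaks. Without those peaks, 8 OPC genes had an OPC peak and 8 an NFO peak. NFO and myelin genes numbered 2 and 3, and transcription factors 4 and 7. Over all genes the shares were then 3.21% and 6.11%. Peaks of both cell types remained at 5, 1 and 2 members of the 3 lists, with no overlapping pair. Of all 306 genes with both, 25.8% had one, and the members are too few to read the absence as a trait of the lists.

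**Figure D5:**
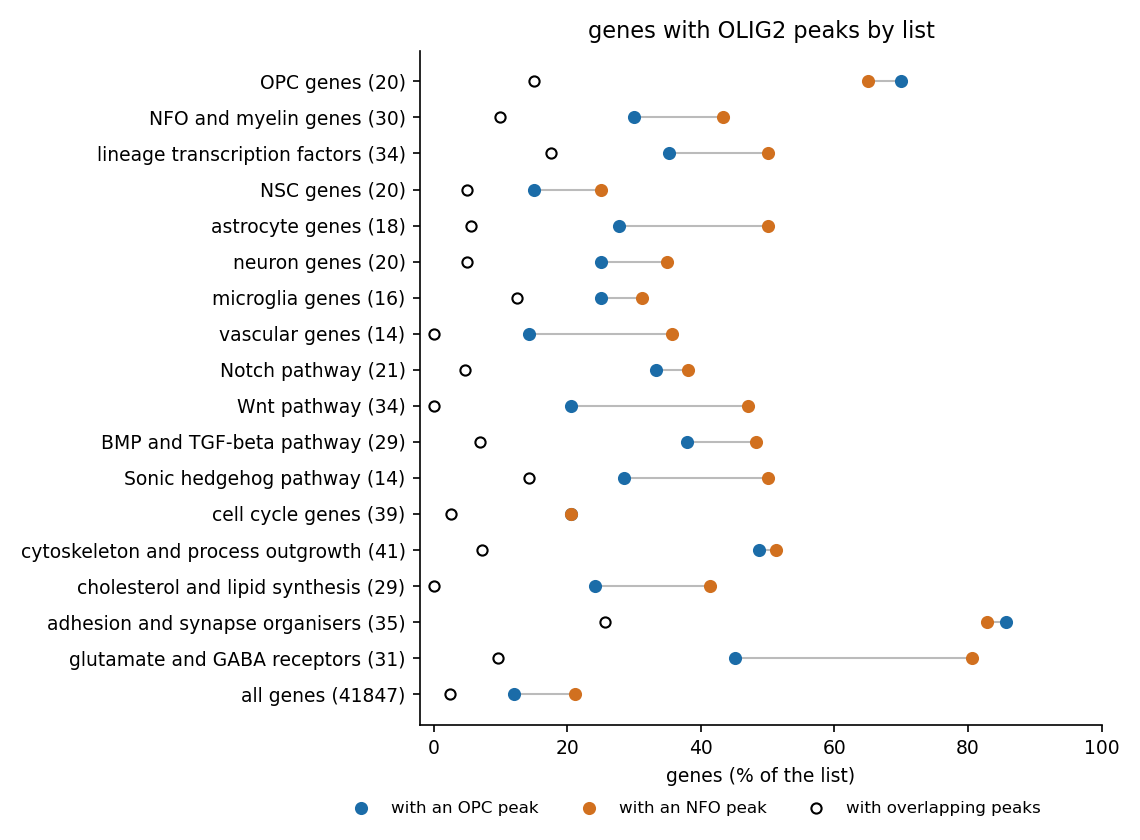
Share of each gene list with an OPC OLIG2 peak (blue), an NFO OLIG2 peak (orange) and overlapping peaks of both (open circles), in % of the list's members (x axis), with the number of members in brackets and all annotated genes at the bottom. NFO points lie above OPC points in most lists, as over all genes (21.2% and 12.1%). Overlapping peaks are found at 3 of 20 OPC genes and at 0 of 34 Wnt genes, against 2.44% of all genes. Of the Wnt genes, 5 had peaks in both cell types.

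Genes of 4 signalling pathways were counted beside the shares of all genes, 12.1% with an OPC peak, 21.2% with an NFO peak and 38.1% overlapping among those with both. Their median lengths were 24236 bp for Notch, 38540 bp for Wnt, 61124 bp for BMP and TGF-beta and 69560 bp for Sonic hedgehog, against 9830 bp over all genes. Of 21 Notch genes, 7 had an OPC peak, 8 an NFO peak, 4 both and 1 an overlapping pair. The pair was at Notch1, the receptor gene, with 24.9 in OPCs and 22.0 in NFOs, while the coactivator gene Maml3 had 4 OPC and 2 NFO peaks, none overlapping. Of 34 Wnt genes, 7 had an OPC peak, 16 an NFO peak and 5 both, and 0 had an overlapping pair. Of 29 BMP and TGF-beta genes, 11 and 14 had peaks, 6 both and 2 overlapping. Smad1, a BMP effector gene, had 4 OPC peaks of up to 12.2 and 2 NFO peaks of up to 4.48, the closest 2029 bp apart. Of 14 Sonic hedgehog genes, 4 and 7 had peaks, 3 both and 2 overlapping, among them the receptor gene Ptch1 with 3 OPC peaks and 1 NFO peak and a strongest value of 23.0 and 34.8.

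Another 5 lists are again set beside 12.1% and 21.2% of all genes with a peak, and 38.1% overlapping among those with both. Adhesion and synapse organisers, with a median length of 591097 bp, had peaks in OPCs at 30 and in NFOs at 29 of 35 members, 26 in both and 9 overlapping, and Cntnap2 had the most. Glutamate and GABA receptor genes, with a median length of 329569 bp, had peaks at 14 of 31 in OPCs and 25 in NFOs, 13 in both and 3 overlapping. Of 41 genes of the cytoskeleton and process outgrowth (57177 bp), led by Ank3, 20 had an OPC peak and 21 an NFO peak, 12 both and 3 overlapping. Of 29 genes of cholesterol and lipid synthesis (25266 bp), 7 had an OPC peak, all 7 were among the 12 with an NFO peak, and 0 overlapped. Acaca, the acetyl-CoA carboxylase gene, had 3 and 6 peaks with the closest 505 bp apart. Of 39 cell cycle genes (13856 bp), 8 had an OPC peak and 8 an NFO peak (20.5% each), the latter close to the share of all genes, and 2 had both. Cdk6, a cyclin-dependent kinase gene, had 2 in each list with 1 overlapping pair.

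Lists of other cell types are given beside the shares of all genes, 12.1% with an OPC peak and 21.2% with an NFO peak. Of 20 neural stem cell genes, 3 had an OPC peak (15%) and 5 an NFO peak (25%), close to those shares at a median length of 13200 bp, with Notch1 again the overlapping one. Of 18 astrocyte genes (median length 22306 bp), 5 and 9 had peaks, and Sox9 was the overlapping one. Nfia, which had the most peaks of that list, and Sox9 are on the transcription factor list as well. Of 20 neuron genes (49028 bp), 5 and 7 had peaks. Elavl4, an RNA-binding protein gene, had 1 and 2, and the overlapping pair was at Gad1, a GABA synthesis gene, with 62.7 in OPCs and 72.4 in NFOs, named after its values were seen. Of 16 microglia genes (10364 bp), 4 and 5 had peaks and 2 overlapped. Of 14 vascular genes (41600 bp), 2 and 5 had peaks, 1 both and 0 overlapping, and Flt1, a VEGF receptor gene, had 2 and 1. All 4 OPC and 5 NFO peaks at microglia genes, and all 3 and 6 at vascular genes, lay beside a run of 10 or more A or T. Such a run lay beside 76.4% of all OPC and 77.0% of all NFO peaks, and these counts are small. At astrocyte genes it lay beside 5 of 5 OPC and 15 of 18 NFO peaks. At neural stem cell genes it lay beside 3 of 3 and 3 of 5, and at neuron genes beside 3 of 5 and 9 of 10.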

How the data were processed

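OLIG2 ChIP-Seq peak lists of OPCs and NFOs were compared, grouped by the cell type and target in the sample titles. The authors mapped reads with Bowtie2 to mm10 (GRCm38), kept unique reads, called OLIG2 peaks with SPP in each library and excluded blacklisted regions. The submitters' processing notes name Bowtie2 and MACS2. The deposited lists give each peak's fold enrichment over control, a ratio, and the −log10 of its FDR. Histone lists, broad peaks with the same units as deposited by the authors, were kept where the fold enrichment exceeded 3.5 and the FDR was under 0.05. The labels of the histone samples name the antibody to the other mark than their titles, and the titles were followed.

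All listed OLIG2 peaks on chromosomes 1 to 19 and X were used. Overlap needed 1 bp. Genes were 34568 of GENCODE release M21 and 7279 NCBI lncRNAs (41847, of which 21755 were protein-coding and 20092 lncRNAs), and a peak belonged to each gene whose body or 5 kb upstream it touched. Nearest transcription start sites (TSSs) were those of any transcript. E-boxes were counted in windows of 201 bp around the summit, and runs of A or T within 150 bp. Gene lists (17) were matched by symbol, and 1 symbol found no match. The functions were tested on simulated data. Alternatives were the filter of an FDR below 0.05 and fold enrichment above 5, a fold enrichment above 10, equal numbers of peaks, overlap of 50% of the OPC peak, protein-coding genes alone, 2 kb upstream, 1 TSS per gene and 50 bp around the summit.

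The members and lists were chosen with earlier results of these data known. Named were the 5 strongest peaks without partner in each list, the 5 pairs with the largest ratio in each direction, the 5 genes with the most peaks in each list and the 5 protein-coding genes with most peaks in 1 list and none in the other. Members of the OPC, NFO and myelin and transcription factor lists with peaks were named, and from each other list the member with the most peaks, except for some genes that are not reported here. Peaks of neural stem cells and RIP-Seq lists were not used here. Tables were handled with pandas 2.3.3 and NumPy 2.4.6 under Python 3.11.15, intervals came from SciPy 1.17.1, sequences were read with pysam 0.24.0 and figures drawn with Matplotlib 3.10.9.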

Additional observations from a re-analysis of the deposited data

How the results depend on the processing

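Of 70 values recomputed under alternatives, 26 moved by less than the counting interval, or for counts by less than 1.5 times, and 44 by more. With a fold enrichment above 10, the overlapping share was 17.1% of OPC and 7.26% of NFO peaks, genes with a peak numbered 1925 in OPCs, 3790 in NFOs and 749 in both, with overlapping peaks at 55.1%. Genes with more than 1 peak made up 9.35% and 13.98%, the median distance was 27487 bp, peaks within 1 kb of a TSS were 20.9% and 11.8%, and peaks with an E-box of the fixed motifs 23.3% and 21.5%. With the FDR below 0.05 and fold enrichment above 5, 13.3% of OPC peaks overlapped, and 16.7% of OPC and 25.3% of NFO genes had more than 1 peak. With as many NFO peaks as OPC peaks, 9.78% of either list overlapped, 4791 genes had an NFO peak and 1765 both, overlapping at 40.3%, NFO genes with more than 1 peak were 18.4%, the median distance was 20325 bp and 11.2% of NFO peaks lay within 1 kb of a TSS. With overlap of at least 50% of the OPC peak, the shares were 13.5% of OPC peaks and 36.0% of genes with peaks in both. With protein-coding genes alone, overlap was at 34.6% of genes with both, and genes with more than 1 peak were 21.1% and 33.3%. With 1 TSS per gene, 9.60% of OPC and 5.96% of NFO peaks lay within 1 kb, and with 50 bp on each side of the summit E-boxes were found in 12.5% and 11.4%. Removal of peaks beside a run of 10 or more A or T, a setting that was chosen after seeing the data, left overlapping shares of 4.36% of OPC and 1.95% of NFO peaks, 1343 OPC genes, 2555 NFO genes, 306 genes with both and 25.8% of these overlapping. Genes with more than 1 peak were then 5.73% and 11.4%, the median distance 47560 bp, NFO peaks within 1 kb of a TSS 8.53% and OPC peaks with an E-box 25.7%. Fewer peaks enter under the stricter filters and equal numbers, and otherwise the cause was not tested. No paired analysis was possible because each cell type has 1 library and no replicate number. Depth is unknown, so it cannot be told apart from the cell type in the lengths of the lists.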
